A study of Mus musculus with 18 samples.

Results

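The chemokine receptors of activated T cells described here are 8 genes, Cxcr3, Cxcr4, Cxcr6, Ccr2, Ccr4, Ccr6, Ccr8 and Ccr9, out of 37991 genes counted in every library. They were chosen by name, with earlier results of these data known, and their rows were found by Ensembl identifier in the 18 count files. All 8 passed the filter on low counts, so none was left out. The mRNA of Cxcr3, Cxcr6 and Ccr2 was higher in tolerized than in naive T cells in each of 3 conditions. Cxcr4 and Ccr9 fell after peptide Ag in both cell states, whereas Ccr8 rose after every stimulus and Cxcr4 rose after treatment in culture.

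Chemokine receptors are membrane proteins that couple to inhibitory G proteins and steer cells along gradients of their ligands, the chemokines. Naive T cells carry few of them beyond those that bring them into lymph nodes. Activated and memory T cells exchange these for receptors that lead to inflamed tissue, skin or gut, and the set that a T cell carries is used to tell helper subsets apart.

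All mice were Tg4 mice on the H2u background (strain Tg4-H2u), in which a TCR transgene directs T cells to a peptide of myelin basic protein, and were 6 to 12 weeks old. Tolerized mice (T) had received repeated subcutaneous injections of the 4Y peptide in rising amounts, and control mice (N, predominantly naive cells) the PBS vehicle on the same schedule. CD4+ T cells were enriched from the spleen with a magnetic kit and were not sorted further, so each library is a mixture of cells. N0 and T0 cells were taken 2 h after a last injection of PBS, and NAg and TAg cells 2 h after a last injection of 80 μg of 4Y peptide. NPI and TPI cells were treated in culture for 2 h with 20 ng/ml of the phorbol ester PMA and 2 μM of the calcium ionophore A23187 (together PI), which act below the TCR. PI and culture cannot be told apart, since N0 and T0 cells were not cultured. Each of the 6 groups had 3 replicates.

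The libraries held between 10758571 and 24119489 counts (median 12268935). The labelled cell type was checked with 11 CD4+ T cell markers, whose summed normalized counts had group medians between 34249 in NAg and 69439 in TPI. The sums after PI hold a rise of Cd28, from a mean of 4260 in N0 to 26002 in NPI and 26034 in TPI. Trac had 13959, 6857 and 6959 in the same groups. In NPI against N0, 4 of the 11 markers were higher and 6 lower, beside 28.6% and 32.7% of all tested genes. Reads of Y-linked genes and of Xist showed that the 3 N0 and 3 NAg libraries, T0 replicate 3 and TAg replicates 1 and 2 came from female mice, and T0 replicates 1 and 2, TAg replicate 3 and all NPI and TPI libraries from male mice. Sex therefore cannot be told apart from PI in naive cells, whereas NAg against N0 and TPI against NPI were comparisons within 1 sex. Where sex was a covariate, its effect was estimated from T0 and TAg alone, the only groups with both sexes, and applied to all groups. Counts were normalized to the TMM-scaled library size, and a gene passed the test at an adjusted p under 0.05 in edgeR's quasi-likelihood test over the 17240 tested genes.

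By the NCBIM37 annotation, Cxcr6 (chr9:123715595-123720872), Ccr2 (chr9:124016689-124028296), Ccr8 (chr9:120001251-120004024) and Ccr9 (chr9:123587557-123691089) lie on the forward strand of chromosome 9, and Ccr4 (chr9:114399434-114405662) on its reverse strand. Cxcr3 (chrX:98926874-98929608) and Cxcr4 (chr1:130484776-130488870) are on the reverse strand and Ccr6 (chr17:8429077-8449992) on the forward strand. The exons of Ccr9 share 269 bases with Gm17200 on the same strand, 22 with Slc6a20a and 56 with Gm17021 on the other strand, and values of Ccr9 are uncertain to that extent, since the strand setting of the counting was not given in the sources used here. Of the 50-base words in the Ccr2 transcripts, 1.86% also occur in transcripts of other genes, and of those of Ccr4 0.391% do. The other 6 members share none.

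The 250 bases before the RefSeq start (GRCm38.p6, 5′ to 3′ on the strand of the gene) are shown for the 3 receptors that were higher in tolerized cells and for the 2 with the largest rise after PI. All 8 members had a promoter in the RefSeq table, Ccr6 with 2 starts. Capitals mark the NFAT core GGAAA on either strand. The AP-1 motif TGANTCA (N, any base) was searched on both strands as well and has no match in these 5 windows.
Cxcr3 (chrX:101734148-101734397, reverse strand): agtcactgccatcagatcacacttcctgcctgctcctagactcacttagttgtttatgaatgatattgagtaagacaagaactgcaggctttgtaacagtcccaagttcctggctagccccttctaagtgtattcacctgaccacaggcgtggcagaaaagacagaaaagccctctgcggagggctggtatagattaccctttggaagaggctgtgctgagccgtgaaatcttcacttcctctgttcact
Cxcr6 (chr9:123806227-123806476, forward strand): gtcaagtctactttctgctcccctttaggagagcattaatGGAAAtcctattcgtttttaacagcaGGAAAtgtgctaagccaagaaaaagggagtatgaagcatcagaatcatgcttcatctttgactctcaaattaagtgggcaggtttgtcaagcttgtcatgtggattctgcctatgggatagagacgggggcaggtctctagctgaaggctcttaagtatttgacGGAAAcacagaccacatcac
Ccr2 (chr9:124101933-124102182, forward strand): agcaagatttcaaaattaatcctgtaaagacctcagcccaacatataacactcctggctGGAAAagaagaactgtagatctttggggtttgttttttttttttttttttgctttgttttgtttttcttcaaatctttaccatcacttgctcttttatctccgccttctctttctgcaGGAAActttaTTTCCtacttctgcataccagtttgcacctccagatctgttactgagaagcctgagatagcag
Cxcr4 (chr1:128592300-128592549, reverse strand): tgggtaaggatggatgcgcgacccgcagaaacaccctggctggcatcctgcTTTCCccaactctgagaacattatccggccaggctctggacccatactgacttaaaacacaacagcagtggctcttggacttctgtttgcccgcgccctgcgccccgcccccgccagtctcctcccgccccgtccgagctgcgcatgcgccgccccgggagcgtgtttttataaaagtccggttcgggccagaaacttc
Ccr8 (chr9:120091883-120092132, forward strand): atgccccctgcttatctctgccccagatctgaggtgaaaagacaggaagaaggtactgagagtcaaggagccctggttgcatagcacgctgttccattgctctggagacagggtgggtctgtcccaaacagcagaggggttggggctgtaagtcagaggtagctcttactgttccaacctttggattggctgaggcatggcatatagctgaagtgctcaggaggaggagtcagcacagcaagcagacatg
Cxcr6 and Ccr2 hold the NFAT core at 3 places each, Cxcr4 at 1, and Cxcr3 and Ccr8 at 0. Among 32851 RefSeq windows of the same length, 55.6% hold the core and 6.75% the AP-1 motif. Ccr4 was the single member with an AP-1 match, next to its 1 match of the core.

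Per length of exon, Cxcr4 had the highest level of the 8 receptors in resting cells, at 524 normalized counts per kb in N0 and 941 in T0. Cxcr3 followed with 104 in N0 and 466 in T0. Ccr8 was the lowest in N0, at 14.5 per kb. After peptide the order changed. Cxcr3 led in NAg with 139 and in TAg with 432 per kb, and Ccr9 was lowest, with 6.93 and 5.45. After PI, Cxcr4 led again with 3987 per kb in NPI and 3305 in TPI, and Ccr8 had become the second in NPI at 502 and the third in TPI at 764.

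**Figure D1:**
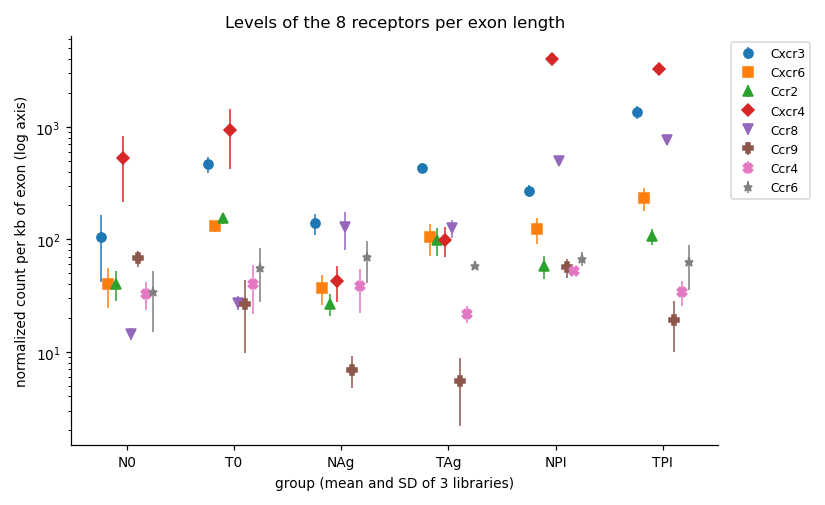
Mean normalized count per kb of exon (log axis) of the 8 receptors in the 6 groups, with bars for the SD of 3 libraries. Cxcr4 is highest in N0, T0, NPI and TPI but not in NAg and TAg, and Ccr8 climbs from 14.5 in N0 to 764 in TPI.

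The first question was which receptors differ between tolerized and naive cells that had not been stimulated. In T0 against N0, 3 of 8 members were higher, beside 8.42% of all tested genes. No member passed as lower in edgeR, beside 12% of all genes, with 1 lower at an unadjusted p under 0.05 (Ccr9) and 0 by DESeq2. The median log2 fold change of the members was 0.88, and that of all tested genes -0.08. After peptide (TAg against NAg) 3 members were higher, beside 20.9%, and none passed as lower, beside 18.5%, where 1 (Ccr4) was lower at an unadjusted p under 0.05 and 1 by DESeq2. After PI (TPI against NPI) 4 were higher, beside 18.2%, and 1 was lower, beside 19.7%. The count of 5 after PI fell to 2 without NPI replicate 3 and to 3 without NPI replicate 1, TPI replicate 1 or TPI replicate 3. These 3 comparisons share no libraries. Since the members were chosen with earlier results of these data known, their counts beside these shares do not test for an excess. In a mixture of cells, more cells of a type and more mRNA per cell cannot be told apart.

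**Figure D2:**
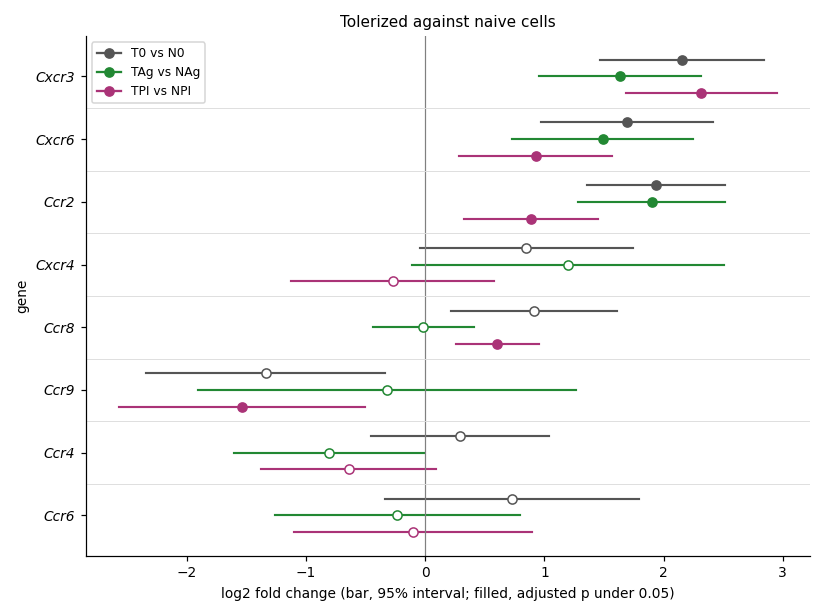
Log2 fold change of each receptor in tolerized over naive cells (horizontal axis) at rest, after peptide and after PI, with 95% intervals; filled points passed the test at an adjusted p under 0.05. Cxcr3, Cxcr6 and Ccr2 lie right of 0 and are filled in all 3 comparisons.

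Cxcr3 binds the interferon-induced chemokines Cxcl9, Cxcl10 and Cxcl11 and marks Th1 and effector cells. Its normalized counts were 292, 78.3 and 170 in the 3 N0 libraries and 708, 758 and 955 in T0. After peptide they were 297, 233 and 194 in NAg and 719, 699 and 828 in TAg. PI-treated cells had 412, 519 and 476 in NPI and 2441, 1991 and 2580 in TPI. Every tolerized library lay above every naive library of its condition, and N0 replicate 2 was the lowest of all. The log2 fold change was 2.16 ± 0.32 (SE, adjusted p = 0.000437) in T0 against N0, which is 4.46-fold. It was 1.64 ± 0.31 (adjusted p = 0.00105) in TAg against NAg and 2.32 ± 0.29 (adjusted p = 3.45e-05) in TPI against NPI. Within female mice the first of these was 2.40 (adjusted p = 0.00858, 1 T0 library, assumed to vary like the other groups) and the second 1.57 (adjusted p = 0.00883). Cxcr3 rose after PI in both states, by 1.37 in NPI against N0 (adjusted p = 0.00219) and by 1.54 in TPI against T0 (adjusted p = 0.000287). With those 2 groups alone in the fit, the NPI against N0 value did not pass (adjusted p = 0.0603). After peptide it did not pass in either state, with values of 0.41 in NAg against N0 (adjusted p = 0.307) and -0.11 in TAg against T0 (adjusted p = 0.774). The first was 0.90 without N0 replicate 1 and passed (adjusted p = 0.0177). Ordered by mean, the groups ran N0, NAg, NPI, TAg, T0 and TPI, and the neighbors N0 and NAg, and TAg and T0, overlapped.

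Cxcr6, the receptor of the membrane-bound chemokine Cxcl16, is found on tissue-resident and effector T cells. Normalized counts were 87.2, 42.8 and 99.2 in N0 and 249, 276 and 222 in T0. They were 88.7, 75.2 and 47.3 in NAg against 124, 232 and 234 in TAg. With PI they reached 182, 301 and 216 in NPI and 480, 320 and 519 in TPI. Tolerized and naive libraries did not overlap in any condition, but the gap after PI was small. The log2 fold changes were 1.70 ± 0.34 at rest (adjusted p = 0.00295), 1.49 ± 0.35 after peptide (adjusted p = 0.0041) and 0.93 ± 0.30 after PI (adjusted p = 0.0243). Without NPI replicate 1 or 3 or TPI replicate 1 or 3 the last of these no longer passed (adjusted p between 0.0684 and 0.0986). With T0 replicate 3 as the single T0 library of female mice, the resting difference was 1.53 (adjusted p = 0.101). PI raised Cxcr6 by 1.60 in naive cells (adjusted p = 0.00089) and by 0.83 in tolerized cells (adjusted p = 0.0226). The latter did not pass without T0 replicate 1 or 3 or TPI replicate 1 or 3 (adjusted p between 0.0604 and 0.082). Within male mice the value was 0.73 (adjusted p = 0.0695). Peptide left it at -0.13 in naive and -0.34 in tolerized cells, neither past the threshold (adjusted p = 0.785 and 0.374).

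Ccr2, which binds Ccl2 and related chemokines, is the receptor that draws inflammatory monocytes and a part of the effector T cells out of the circulation. The N0 libraries had 302, 167 and 300 normalized counts and the T0 libraries 1072, 1030 and 857. NAg libraries had 203, 130 and 177, and TAg libraries 428, 730 and 747. After PI the values were 336, 465 and 306 in naive and 623, 606 and 807 in tolerized cells. No naive library reached a tolerized library of its condition. The log2 fold changes of tolerized over naive cells were 1.94 ± 0.27 at rest (adjusted p = 0.000244), 1.90 ± 0.28 after peptide (adjusted p = 0.000141) and 0.89 ± 0.26 after PI (adjusted p = 0.0156). Within female mice they were 1.73 at rest (adjusted p = 0.0208, 1 T0 library) and 1.78 after peptide (adjusted p = 0.00243). The difference after PI did not pass without NPI replicate 1, NPI replicate 3 or TPI replicate 3 (adjusted p between 0.0613 and 0.0679). Unlike Cxcr3 and Cxcr6, Ccr2 was highest in T0. In naive cells NAg against N0 was -0.60 on the log2 scale and did not pass (adjusted p = 0.0925). Without N0 replicate 2 that value was -0.88 and passed (adjusted p = 0.0157). Ccr2 was lower in TAg than in T0 by 0.64 on the log2 scale (adjusted p = 0.0435). That call was lost without T0 replicate 1, T0 replicate 2 or TAg replicate 1 (adjusted p between 0.0888 and 0.168). The same held without the low-count filter, with only those groups, with a replicate block and with sex as a covariate (adjusted p between 0.0526 and 0.0981). Within female and male mice, with 1 library in 1 of the groups each time, the values were -0.60 and -0.53.

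Some markers of other cells also differed between tolerized and naive cells. Of all tested genes, 8.42% were higher and 12% lower in T0 against N0. These shares were 20.9% and 18.5% in TAg against NAg, and 18.2% and 19.7% in TPI against NPI. All 13 neutrophil markers were higher in T0 than in N0 and in TAg than in NAg, and 7 of 13 in TPI than in NPI. Their summed normalized counts had medians of 269 in N0, 3693 in T0, 436 in NAg, 3139 in TAg, 178 in NPI and 608 in TPI. Of 12 monocyte and macrophage markers, 2 were higher in T0 (Ly6c2 and Lyz2), 3 in TAg and 3 in TPI, and 6 were lower in TAg. Their sums ranged from 818 to 1016 in N0, from 2170 to 2594 in T0 and from 1563 to 2341 in TAg. After PI they were 619 to 947 in NPI and 1113 to 1302 in TPI. Mean Ly6c2 was 99.2 in N0, 478 in T0, 102 in NAg, 394 in TAg, 133 in NPI and 270 in TPI. Mean Lyz2 was 207, 1082, 245, 845, 157 and 371 in the same order. Means in N0 and T0 were 134 and 205 for Csf1r, 238 and 399 for Itgam, 84.4 and 80.8 for Cd68, 87.9 and 31.3 for Vcam1 and 13.4 and 3.90 for C1qa, none past the threshold, and Marco was at 0 in N0 and at 1.25 in T0. In NAg the monocyte and macrophage sum was 2423 in replicate 1 and 800 and 882 in the others. Replicate 1 was also the highest NAg library in Cxcr3, Cxcr6, Ccr2, Ccr4, Ccr6 and Ccr8, but not in Cxcr4 and Ccr9. The summed ligands were highest in it as well (2904 against 1555 and 1495). Of the erythroid markers 1 of 8 was higher in T0, and the median log2 fold changes of B cell, NK cell and dendritic cell markers were 0.76, 0.42 and 0.60. In these 3 lists 0 of 8, 0 of 6 and 0 of 8 markers passed in T0 against N0. Of 2 CD8 markers 1 was lower in T0 and 2 in TPI. In T0 and TPI the median neutrophil sum was 3693 and 608, and the median monocyte and macrophage sum 2301 and 1234. Ccr2 was at a mean of 678 ± 111 (SD, n = 3) in TPI and 986 ± 114 in T0. Cxcr3 and Cxcr6 were higher in TPI than in T0. Regulatory T cell markers were higher as well, 4 of 5 in T0, 2 in TAg and 4 in TPI. Their sums ran from 1671 to 3276 in N0 and from 7674 to 9420 in T0. After 2 h of stimulation they were higher, at 29020 to 34709 in NAg and 39034 to 40325 in TAg. With PI they were 12040 to 13846 in NPI and 52801 to 66272 in TPI. The list includes Il2ra and Ctla4, and its sums cannot be read as a number of cells. The part of other cell types in the receptor levels was not tested.

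**Figure D3:**
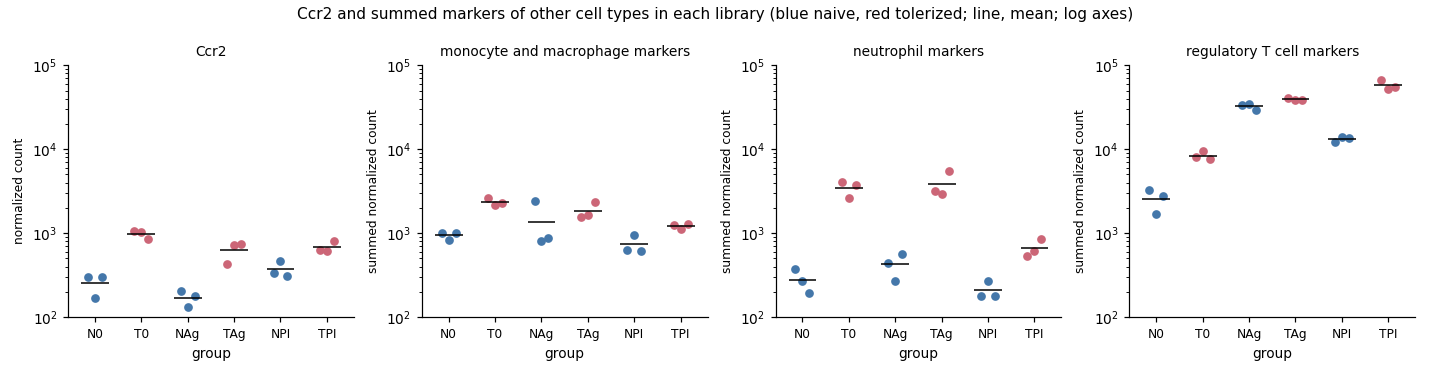
Normalized count of Ccr2 and summed normalized counts of 3 marker lists in each library (points, log axes; line, group mean). In T0 and TAg the neutrophil sums lie between 2614 and 5538, and in TPI between 530 and 852.

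The second question was how the receptors respond to Ag in the mouse. In NAg against N0, 1 of 8 members rose, beside 32.1% of tested genes, and 2 fell, beside 33.4%. The number passing was 5 in place of 3 without N0 replicate 1, where Cxcr3 and Ccr6 passed as well. In TAg against T0, 1 rose, beside 29.9%, and 4 fell, beside 29.8%. The total of 5 dropped to 3 without T0 replicate 1, T0 replicate 2 or TAg replicate 1. The genes that passed in both states were Cxcr4 and Ccr9, which fell, and Ccr8, which rose.

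**Figure D4:**
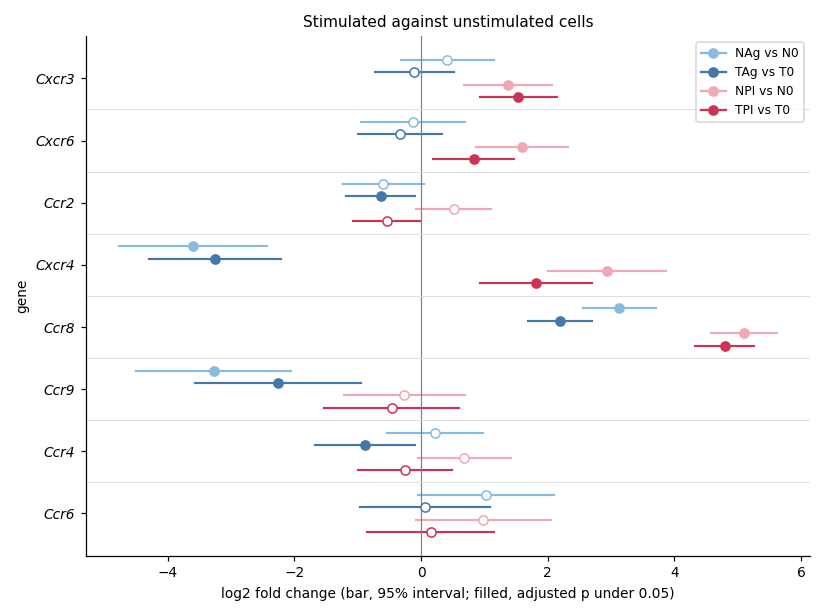
Log2 fold change of each receptor after peptide (blue) and after PI (red) in naive and tolerized cells, with 95% intervals; filled points passed the test. Cxcr4 lies left of 0 after peptide and right of 0 after PI, and Ccr8 lies right of 0 in all 4 comparisons.

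Cxcr4 is the receptor of Cxcl12, which holds lymphocytes in bone marrow and lymphoid tissue. N0 libraries had 790, 1569 and 480 normalized counts and NAg libraries 88.7, 45.8 and 96.8. T0 libraries had 1237, 1094 and 2776 and TAg libraries 172, 235 and 130. In each state every library after peptide lay below every resting one. Cxcr4 fell by 3.61 ± 0.54 (SE) on the log2 scale in naive cells (adjusted p = 4.72e-05), a 12.2-fold change, and by 3.26 ± 0.48 in tolerized cells (adjusted p = 4.81e-05). The log2 fold change in tolerized cells was -3.81 within female mice (adjusted p = 0.000226) and -3.20 within male mice (adjusted p = 0.00293), with 1 library in 1 of the groups each time. After PI the direction was the opposite, with 6598, 7043 and 7983 in NPI and 5838, 6222 and 5865 in TPI. The 2 groups did not overlap, with TPI the lower. PI raised Cxcr4 by 2.93 ± 0.43 in naive cells (adjusted p = 4.99e-05) and by 1.81 ± 0.41 in tolerized cells (adjusted p = 0.0015). Between the stimuli the difference was 93.1-fold in naive cells (log2 fold change 6.54, adjusted p = 1.74e-07) and 33.6-fold in tolerized cells (5.07, adjusted p = 8.9e-07). In the fit of all groups no difference in Cxcr4 between tolerized and naive cells passed. The log2 fold changes were 0.85 at rest (95% interval -0.05 to 1.74), 1.20 after peptide (-0.11 to 2.51) and -0.27 after PI (-1.12 to 0.58).  The peptide difference passed with DESeq2 (1.18, adjusted p = 0.0287), and with only the NAg and TAg libraries in the fit (1.22, adjusted p = 0.0131). The PI difference passed with only the NPI and TPI libraries in the fit (-0.25, adjusted p = 0.0117). With sex as a covariate the resting and peptide differences were 1.43 and 1.51 (adjusted p = 0.0416 and 0.0369). The resting difference was 0.30 without T0 replicate 3 (adjusted p = 0.627) and 1.41 without N0 replicate 2 (adjusted p = 0.0373).

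Ccr8 is the receptor of Ccl1 and Ccl8 and is carried by regulatory, Th2 and skin-homing T cells. It had 18.8, 14.6 and 16.9 normalized counts in N0 and 31.0, 36.2 and 27.8 in T0. After peptide the values were 200, 155 and 90.2 in NAg and 174, 119 and 144 in TAg. PI brought it to 521, 581 and 638 in NPI and 828, 869 and 951 in TPI. Stimulated and resting libraries of a state were far apart, and the only neighboring groups that overlapped were NAg and TAg. Peptide raised Ccr8 by 3.13 ± 0.27 in naive cells (8.74-fold, adjusted p = 6.89e-09) and by 2.20 ± 0.24 in tolerized cells (4.59-fold, adjusted p = 1.9e-07). PI raised it by 5.10 ± 0.25 in naive cells (34.3-fold, adjusted p = 3.18e-12) and by 4.79 ± 0.22 in tolerized cells (27.7-fold, adjusted p = 8.3e-13), and by 4.69 within male mice (adjusted p = 3.01e-09). In T0 against N0 the value was 0.91 ± 0.33 (adjusted p = 0.0614), with no overlap between the groups, and DESeq2 called it (adjusted p = 0.0157). After peptide it was -0.02, with a 95% interval from -0.44 to 0.41. Only after PI did the difference between tolerized and naive cells pass, at 0.61 ± 0.17 (adjusted p = 0.00732), in male mice throughout.

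Ccr9 is the receptor of Ccl25 and guides T cells to the small intestine and the thymus. It alone of the 8 had its highest mean in N0, where the libraries had 182, 254 and 217 normalized counts. The T0 libraries had 126, 106 and 24.0, the last of them from the female mouse. After peptide the values were 26.4, 14.1 and 26.4 in NAg and 11.0, 11.9 and 29.7 in TAg, so that T0 replicate 3 lay within the range of TAg. NPI libraries kept 150, 175 and 217, and TPI libraries had 33.1, 59.3 and 92.9. Peptide lowered Ccr9 by 3.28 ± 0.56 on the log2 scale in naive cells (adjusted p = 0.000145) and by 2.26 ± 0.60 in tolerized cells (adjusted p = 0.0052). The latter was -2.0 within male mice (adjusted p = 0.00759) and -1.09 within female mice (adjusted p = 0.225). After PI it did not pass in either state, with -0.26 in naive cells (95% interval -1.22 to 0.69) and -0.47 in tolerized cells (-1.53 to 0.60). With sex as a covariate those values were -2.19 (adjusted p = 0.000942) and -0.83 (adjusted p = 0.0214), and the second was -0.92 without T0 replicate 3 (adjusted p = 0.0345). For naive cells that fit carries over a sex difference seen only in tolerized cells, so it does not separate sex from PI. Ccr9 was lower in TPI than in NPI by 1.54 ± 0.48 (adjusted p = 0.0213), where all mice were male. That call was lost without NPI replicate 3, TPI replicate 1 or TPI replicate 2 (adjusted p between 0.0604 and 0.0907). In T0 against N0 the value was -1.34 ± 0.46 (adjusted p = 0.0595), the groups did not overlap, and with sex as a covariate it was -2.90 (adjusted p = 0.000249). It passed without T0 replicate 1 as well (-1.73, adjusted p = 0.0483). Within female mice it was -3.18 (adjusted p = 0.00183, 1 T0 library).

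Ccr4, the receptor of Ccl17 and Ccl22 on Th2, regulatory and skin-homing cells, passed in 1 of the 9 comparisons between groups. Its normalized counts were 115, 64.7 and 104 in N0, 129, 162 and 56.6 in T0, 163, 92.8 and 75.9 in NAg and 51.7, 72.7 and 64.5 in TAg. NPI libraries had 145, 156 and 156 and TPI libraries 71.1, 119 and 105. Groups next to each other in the order of means overlapped, but NAg and TAg, NPI and TPI, and N0 and NPI did not. The one call was a fall of 0.88 ± 0.37 in TAg against T0, and it stood at the threshold (adjusted p = 0.04996) with overlapping groups. It was lost with DESeq2's size factors, without the low-count filter, with only those groups, with a replicate block and with sex as a covariate (adjusted p between 0.0518 and 0.206). It was lost as well without T0 replicate 1, T0 replicate 2 or any TAg replicate (adjusted p between 0.0678 and 0.198). Within female mice, with 1 T0 library, the value was 0.10. Other fits called further differences of Ccr4. TAg against NAg, at -0.81 (adjusted p = 0.104), passed with DESeq2 (adjusted p = 0.0347), with sex as a covariate (0.0284) and with only those groups (0.0493). NPI against N0, at 0.68 (adjusted p = 0.101), passed with DESeq2 (adjusted p = 0.0464) and with only those groups (0.0045). TPI against NPI, at -0.64 (adjusted p = 0.163), and TPI against TAg, at 0.63 (adjusted p = 0.151), passed with only the groups compared (adjusted p = 0.00459 and 0.0125).

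Ccr6, the receptor of Ccl20 and a marker of Th17 cells, passed in none of the 9 comparisons in the edgeR fit of all groups. It had 103, 34.5 and 53.5 normalized counts in N0 and 141, 132 and 44.1 in T0. The other libraries ranged from 67.1 to 182. The largest estimate was 1.02 ± 0.49 in NAg against N0 (adjusted p = 0.0867, 95% interval -0.05 to 2.09), which passed with DESeq2 (adjusted p = 0.0447), without N0 replicate 1 (1.5, adjusted p = 0.0315) and without NAg replicate 3 (1.31, adjusted p = 0.042). NPI against N0 was 0.98 with no overlap (adjusted p = 0.101). It passed with only those groups (1.02, adjusted p = 0.0452) and without N0 replicate 1 (1.47, adjusted p = 0.0365). T0 replicate 3, the female T0 library, was the highest of its group in Cxcr3 and Cxcr4 and the lowest in the other 6 receptors.

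**Figure D5:**
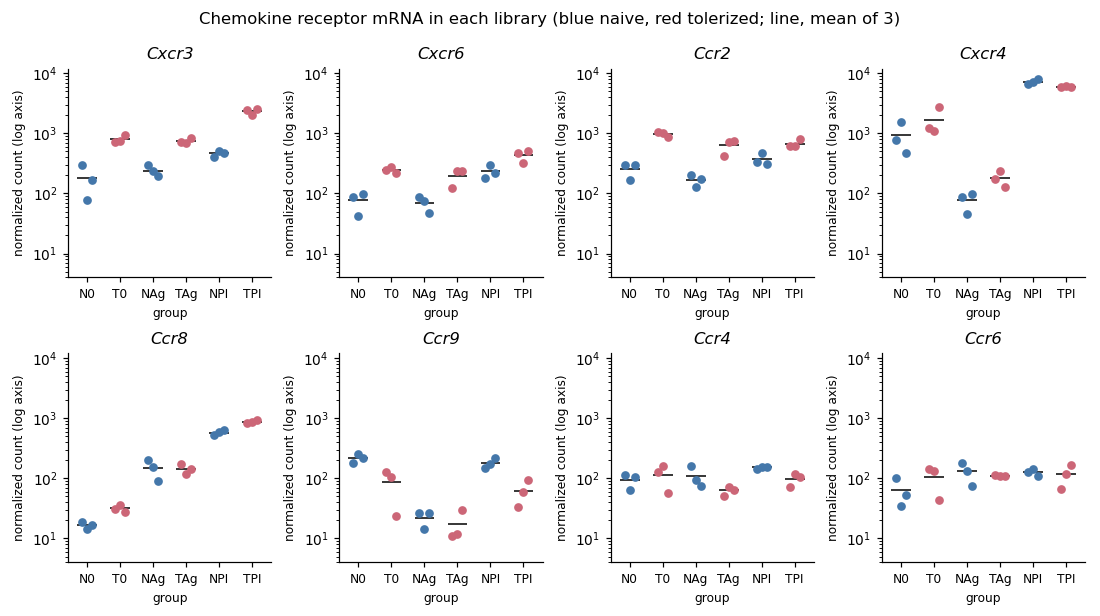
Normalized count (log axis) of each receptor in each of the 18 libraries (points; blue, naive; red, tolerized) with the mean of 3 (line). Cxcr4 spans 45.8 to 7983, Ccr8 rises from at most 18.8 in N0 to at least 828 in TPI, and Ccr6 stays between 34.5 and 182.

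PI was compared with rest and with peptide across the set. In NPI against N0, 4 of 8 members rose, beside 28.6% of tested genes, and in TPI against T0 4 rose, beside 32.0%. They were Cxcr3, Cxcr4, Cxcr6 and Ccr8 in both. In the fit of all groups no member fell in either by edgeR, by DESeq2 or at an unadjusted p under 0.05 (0 each), beside 32.7% and 36.3% of tested genes. Other fits called a fall in TPI against T0. Ccr2, at -0.54 with no overlap (adjusted p = 0.0718), passed within male mice (-0.65, adjusted p = 0.0438), with sex as a covariate (-0.64, adjusted p = 0.041), with only those groups (adjusted p = 0.0125) and without TPI replicate 3 (-0.68, adjusted p = 0.0497). Ccr9 passed within male mice (-0.92, adjusted p = 0.0278). The values of both states rest on separate libraries. In NPI against NAg, 6 members were higher, beside 33.5%, and 0 lower by either tool or at an unadjusted p under 0.05, beside 31.0%. With sex as a covariate 3 of these 6 passed, and Cxcr3, Ccr2 and Ccr9 did not (adjusted p = 0.0664, 0.107 and 0.103). That fit took its sex effect from tolerized cells, since each naive group held 1 sex. In TPI against TAg, 5 were higher, beside 31.5%, and again 0 lower by any of the 3 counts, beside 32.3%. Within male mice 3 of these 5 passed, and Cxcr6 and Ccr9 did not (adjusted p = 0.0929 and 0.109).

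Whether tolerized cells responded differently from naive cells was tested as the difference of the 2 responses. For peptide, 0 of 8 members passed in edgeR, beside 14.6% of tested genes with a difference (tolerized minus naive log2 fold change) above 0 and 7.09% with one below 0. There were 2 members with an unadjusted p under 0.05, and 1 passed with DESeq2. These were Ccr8, at -0.93 ± 0.39 (adjusted p = 0.104, and 0.0378 with DESeq2), and Ccr4, at -1.10 ± 0.51 (adjusted p = 0.153). Ccr4 passed without T0 replicate 3 (-1.41, adjusted p = 0.0172) and Ccr8 without NAg replicate 3 (-1.20, adjusted p = 0.0032). For PI, 0 passed, beside 12.7% and 7.52%, with 1 at an unadjusted p under 0.05 and 1 by DESeq2. That member was Ccr2, at -1.05 ± 0.37 (adjusted p = 0.0637, and 0.0375 with DESeq2). Without N0 replicate 2 Cxcr4 passed (-1.67, adjusted p = 0.0409), and without T0 replicate 3 Ccr4 did (-1.24, adjusted p = 0.0291). With sex as a covariate Ccr9 passed for peptide (1.64, adjusted p = 0.0396) and Cxcr4 for PI (-1.70, adjusted p = 0.0408). The sex effect in that fit came from tolerized cells alone.

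Of 15 other chemokine receptors, 14 were tested. In T0 against N0 5 were higher and 1 lower, beside 8.42% and 12% of all tested genes. The counts were 5 and 1 in TAg against NAg, beside 20.9% and 18.5%, and 3 and 1 in TPI against NPI, beside 18.2% and 19.7%. Ccr7, which brings naive T cells into lymph nodes, was the abundant one of these. It had a mean of 3851 ± 202 normalized counts in N0, 2487 ± 470 in T0, 648 ± 43 in NAg, 846 ± 68 in TAg, 11772 ± 1186 in NPI and 8940 ± 313 in TPI. Like Cxcr4 it fell after peptide in both states (log2 fold changes -2.57 and -1.55, adjusted p = 1.34e-15 and 9.82e-12) and rose after PI (1.61 and 1.85, adjusted p = 4.83e-12 and 3.12e-13). Cxcr5, which leads T cells into B cell follicles, had means of 151 in N0, 477 in T0, 716 in NAg, 1269 in TAg, 453 in NPI and 2908 in TPI. It was higher in tolerized cells at rest (1.65, adjusted p = 0.0124) and after PI (2.68, adjusted p = 7e-05). Ccr1 had means of 12.1 in N0 and 62.6 in T0 (2.37, adjusted p = 0.00517) and Cx3cr1 of 58.0 and 104 (0.83, adjusted p = 0.0192). Both genes are also known from myeloid cells.

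Among 14 ligands of the 8 receptors, 11 were tested. After peptide 7 rose and 1 fell in naive cells, beside 32.1% and 33.4% of all tested genes. In tolerized cells 5 rose, beside 29.9%, and 0 fell, beside 29.8%. Cxcl9, a ligand of Cxcr3, went from 2.71 normalized counts in N0 to 699 in NAg and from 5.72 in T0 to 620 in TAg, and Cxcl10 from 5.63 to 773 and from 9.97 to 686. The Ccr4 ligands differed between the states. Ccl22 had a mean of 217 ± 19 in NAg and 13.2 ± 0.1 in TAg (log2 fold change -4.03, adjusted p = 8.61e-10), and Ccl17 of 19.1 ± 9.1 and 1.08 ± 1.10 (adjusted p = 0.000409). Ccl1, a ligand of Ccr8, had 58.0 ± 50.1 in NAg and 6.94 ± 2.66 in TAg (adjusted p = 0.016). After PI 8 ligands rose and 1 fell in naive cells, beside 28.6% and 32.7% of all tested genes. In tolerized cells 9 rose and 1 fell, beside 32.0% and 36.3%. Ccl20, the ligand of Ccr6, had 0 counts in every N0 and T0 library and means of 38.3 in NPI and 51.2 in TPI. The cells that made these ligands are not known from the mixture.

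All 30 genes listed for signaling and desensitization of the receptors were tested. In NAg against N0 5 rose and 20 fell, beside 32.1% and 33.4% of all tested genes. The median log2 fold change was -0.98 beside 0 for all tested genes. In TAg against T0 5 rose and 19 fell, beside 29.9% and 29.8%, with a median of -0.81 beside -0.05. CD4+ T cell markers fell in the same comparisons, 10 of 11 in naive cells with a median of -1.03 and 8 of 11 in tolerized cells with a median of -0.51. Arrb2, an arrestin that uncouples active receptors, fell from 2026 to 209 normalized counts in naive cells (-3.27, adjusted p = 1.68e-19) and from 1948 to 439 in tolerized cells (-2.15, adjusted p = 1.46e-16). Rgs14, which speeds the switching off of G proteins, fell from 1565 to 43.7 and from 1208 to 131 (-5.15 and -3.21, adjusted p = 7.55e-15 and 1.52e-12). Its relative Rgs16 had means of 26.9 in N0, 71.4 in T0, 138 in NAg, 2468 in TAg, 1054 in NPI and 5243 in TPI. It was 4.17 higher on the log2 scale in TAg than in NAg (adjusted p = 4.8e-08). In that comparison 18 genes of the list were higher and 4 lower, beside 20.9% and 18.5% of all tested genes. Rgs1 was higher in T0 than in N0 (0.82, adjusted p = 7.98e-05), with means of 1227 and 696, as were 3 of the 30 in all, against 1 lower, beside 8.42% and 12% of all tested genes.

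Across the 18 libraries, which share the same 6 groups, Pearson's r of log2 values (with 2 added) described which receptors had like patterns. Cxcr3 and Cxcr6 had r = 0.91, Cxcr6 and Ccr2 0.83 and Cxcr3 and Ccr2 0.78, and the lowest value of any pair was -0.26 for Cxcr3 and Ccr9. Among 11554 other genes with a mean of at least 50 in some group, those most like Ccr8 were Rnf19b, Ifng and Plagl1 (r = 0.996, 0.993 and 0.989). Cxcr4 was most like Cpeb2, Tmem66 and Il17ra (0.979, 0.978 and 0.977), Cxcr3 most like Raph1 and Gm5148 (0.961 and 0.948) and Ccr9 most like Mctp2, Prkcb and Ramp1 (0.944, 0.938 and 0.936). For Cxcr6 these genes were Ildr1, S100a11 and Crybg3 (0.941, 0.936 and 0.935), and for Ccr2 Fn1, Miat and Hip1 (0.948, 0.940 and 0.940). Ccr6 and Ccr4 had no gene as close, with Sdc4, Nlrp3 and Fes at 0.788, 0.737 and 0.736 for Ccr6 and Itsn1, Slc16a6 and Lrrc16a at 0.716, 0.709 and 0.702 for Ccr4.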

How the data were processed

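Splenic CD4+ T cells were profiled by RNA-seq in 18 libraries, with 3 in each of the 6 groups that the labels give. The authors aligned the reads to mm9 with TopHat2 2.1.1 and counted them per Ensembl gene with HTSeq 0.9.1, per the submitters' processing notes, and the deposited values are raw counts for 37991 genes. Strand and overlap settings were not given in the sources used here. Symbols came from GENCODE annotation of NCBIM37 for 37205 genes.

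Counts were scaled by TMM, 17240 genes were kept whose normalized counts averaged 3 or more in some group, and a model of 6 groups was tested with edgeR 4.0.16 (quasi-likelihood, robust) in R 4.3.3. P-values were adjusted over all tested genes (Benjamini-Hochberg) and intervals cover 95%. DESeq2 1.42.0 was an alternative. The test was checked on simulated counts. Where nothing in the labels says that replicates came from separate mice, p-values measure the spread between these libraries only. The 8 receptors and all lists were chosen with earlier results of these data known. Every receptor was named, as were Ccr7, Cxcr5, Cx3cr1 and Ccr1, at most 3 passing ligand or signaling genes with the largest change in a comparison, and the 3 genes most like each receptor. Values of 2 genes that this rule takes in are not reported here.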

Additional observations from a re-analysis of the deposited data

Results flagged for a closer look

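Ccr7 was singled out because its response to peptide differed between tolerized and naive cells. It fell by 2.57 on the log2 scale in naive cells and by 1.55 in tolerized cells, a difference of 1.02 ± 0.15 (SE, edgeR, adjusted p = 2.84e-05, 3 libraries per group). All 3 TAg libraries lay above the 3 NAg libraries, with means of 846 and 648. At rest all 3 T0 libraries lay below the 3 N0 libraries, with means of 2487 and 3851. The difference of responses thus includes a gap that was present before peptide. Groups of 3 were not tested for outlying libraries.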

How the results depend on the processing

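The higher levels of Cxcr3 and Ccr2 in T0 and TAg, and the changes of Cxcr4 and Ccr8 after peptide and PI, kept their direction and passed under every alternative run. With DESeq2's size factors 87 of 88 fold changes kept direction and call, with DESeq2's test 81, without the low-count filter 86, with only the compared groups 76 and with sex as a covariate 65. The within-sex fits were chosen after seeing the data and kept 21 of 32 in female and 14 of 24 in male mice. The counts of members passing that moved by over 1.5 times were these. With sex as a covariate they were 5 in T0 against N0, 5 in TAg against NAg, 3 in TAg against T0, 3 in NPI against NAg, and 1 for either difference of responses. With DESeq2 they were 5 in TAg against NAg and 1 for either difference. With only the compared groups they were 5 in TAg against NAg and 3 in TAg against T0, and without the filter 3 in TAg against T0. Requiring an unadjusted p under 0.05 in edgeR, an adjusted p under 0.05 in DESeq2 and a 2-fold change gave 2 in TPI against NPI, 3 in TAg against T0 and 1 for the difference of PI responses. Within female mice TAg against T0 gave 2, and within male mice TPI against TAg gave 3. Leaving out 1 library gave 2 to 5 in TPI against NPI, 3 to 5 in NAg against N0, 3 to 5 in TAg against T0, and 0 to 1 for either difference of responses. Among the smaller changes of count were, with DESeq2, 4 in T0 against N0, 4 in NAg against N0 and 5 in NPI against N0, and with only the compared groups 4 in T0 against N0, 7 in TPI against NPI, 5 in NPI against N0, 5 in TPI against T0 and 6 in TPI against TAg. The cause was not tested.

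The replicate numbers did not pair the libraries (same-number correlations between -0.23 and 0.14, 2 of 18 libraries closest to their own number). With a replicate block 86 of 88 fold changes kept direction and call, and 3 members in place of 5 passed in TAg against T0.

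Signs turned for values that had not passed, with Ccr4 in TAg against T0 as the exception. With sex as a covariate Ccr4 was -0.28 in T0 against N0, -0.058 in NPI against N0 and -0.28 in NPI against NAg, Ccr2 was -0.11 and Ccr6 -0.39 in TPI against TAg, and the differences of responses were 0.066 for Ccr2 (peptide) and 1.36 for Ccr9 (PI). Within female mice Ccr4 was -0.75 and Ccr6 -0.54 in T0 against N0, Ccr8 0.0077 in TAg against NAg, and the differences of peptide responses were -0.15 for Cxcr4, 0.046 for Ccr2 and 0.33 for Ccr6. Within male mice Cxcr3 was 0.14 and Ccr6 -0.37 in TAg against T0, Ccr6 -0.23 in TPI against T0 and Ccr2 -0.12 in TPI against TAg. Ccr4 in TAg against T0, which had passed at the threshold, was 0.10 within female mice. Leaving out 1 library gave ranges that cross 0 for Ccr4 in T0 against N0 (-0.033 to 0.61), Ccr6 (-0.52 to 0.09) and Ccr8 (-0.28 to 0.27) in TAg against NAg, Ccr6 in TPI against NPI (-0.47 to 0.21), Cxcr6 (-0.46 to 0.10) and Ccr4 (-0.17 to 0.44) in NAg against N0, Cxcr3 (-0.23 to 0.0002) and Ccr6 (-0.33 to 0.28) in TAg against T0, Ccr4 (-0.60 to 0.042) and Ccr6 (-0.23 to 0.46) in TPI against T0, Ccr6 in NPI against NAg (-0.33 to 0.28), and Ccr2 (-0.10 to 0.23) and Ccr6 (-0.27 to 0.40) in TPI against TAg. The same held for the differences of peptide responses of Cxcr4 (-0.20 to 0.92), Cxcr6 (-0.44 to 0.094) and Ccr2 (-0.20 to 0.21) and of PI responses of Cxcr3 (-0.36 to 0.53) and Ccr9 (-0.66 to 0.21). With counts of 10 to 9405 per library for the 8 receptors, Ccr8 at rest and Ccr9 after peptide rested on the fewest counts.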
